A study of Mus musculus with 10 samples.

Results

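The genes described here are the interferon-stimulated and guanylate-binding genes of the mouse, in kidney cortex after aristolochic acid. They were chosen by symbol alone: the *Gbp*, *Ifit*, *Ifitm*, *Ifi*, *Irf*, *Oas*, *Mx*, *Irgm* and *Iigp* genes, the *Ifna*, *Ifnar* and *Ifngr* genes, and *Igtp*, *Isg15*, *Isg20*, *Rsad2*, *Usp18*, *Ddx58*, *Ifih1*, *Dhx58*, *Zbp1*, *Xaf1*, *Cmpk2*, *Bst2*, *Eif2ak2* and *Tmem173*. The rule found 87 of the 21792 genes in the data. RNA of renal cortex was sequenced from 10 wild-type (WT) mice, each its own library: 4 sham mice, which received PBS, and 6 mice with aristolochic acid nephropathy (AAN), which received aristolochic acid by a single intraperitoneal injection of 5 mg/kg. Both groups were taken on day 28. Per the study's methods the AAN model used male C57BL/6 mice aged 8 weeks, and the samples are whole cortex, in which fewer cells of a type and less RNA per cell cannot be told apart. Aristolochic acid is a plant toxin that damages the proximal tubule and leads to kidney fibrosis, and the design asks how gene expression in the AAN kidney differed from that in sham kidney.

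Interferons are secreted proteins that warn cells of viruses and other damage. Type I interferons act through a receptor of the Ifnar1 and Ifnar2 subunits and interferon gamma through Ifngr1 and Ifngr2, and both receptors pass the signal through Janus kinases (Jak1, Jak2, Tyk2) to STAT proteins. A complex of STAT proteins with Irf9 binds a promoter element called ISRE, and paired STAT proteins bind an element called GAS. The genes so switched on include sensors of foreign nucleic acid, proteins that bind or degrade viral RNA, and large GTPases that attack vacuoles of microbes inside cells.

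The letters of both elements were searched in RefSeq promoter windows (build GRCm38.p6) that run from 250 bases before to 50 bases after an annotated gene start. A window was found for 65 of the 87 members. The ISRE letters searched were GAAA, any 2 bases and GAAA on either strand, which read TTTC, any 2 bases and TTTC when the element lies on the other strand, and the GAS letters were TTCNNNGAA, which read the same on both strands. ISRE letters stood in the windows of 35 of 65 members (53.8%), against 3.99% of all 27025 genes with a window. GAS letters stood in 19 of 65 members (29.2%), against 9.55% of all genes. The sequences below are the 250 bases before the start, 5′ to 3′ on the strand of the gene, with ISRE and GAS letters in capitals, and were chosen to show how the elements lie in members whose values are given later. In *Isg15* (chr4:156200819-156201068, minus strand) there were 3 overlapping ISRE matches, and *Ifit1* (chr19:34640639-34640888) and *Ifit3* (chr19:34583279-34583528), both on the plus strand, had a pair each.
Isg15: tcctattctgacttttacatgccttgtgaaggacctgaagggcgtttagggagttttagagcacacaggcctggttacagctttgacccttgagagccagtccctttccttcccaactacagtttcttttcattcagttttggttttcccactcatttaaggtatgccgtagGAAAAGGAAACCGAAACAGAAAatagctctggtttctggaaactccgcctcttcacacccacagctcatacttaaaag
Ifit1: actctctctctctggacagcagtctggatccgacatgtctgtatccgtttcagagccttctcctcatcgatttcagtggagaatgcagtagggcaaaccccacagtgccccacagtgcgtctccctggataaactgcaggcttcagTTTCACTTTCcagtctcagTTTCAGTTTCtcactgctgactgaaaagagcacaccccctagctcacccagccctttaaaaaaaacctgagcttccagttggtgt
Ifit3: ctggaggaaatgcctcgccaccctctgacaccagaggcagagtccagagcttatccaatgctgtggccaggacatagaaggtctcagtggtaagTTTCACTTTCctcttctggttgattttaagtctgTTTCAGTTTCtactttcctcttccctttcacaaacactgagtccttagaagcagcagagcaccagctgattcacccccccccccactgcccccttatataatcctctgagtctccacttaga

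ISRE letters stood in 5 of 5 guanylate-binding protein genes that had a window, all on chromosome 3. For the 6 on chromosome 5 no window was found. The letters also stood in 3 of 3 windows of genes grouped here as immunity-related GTPases, while *Iigp1* of that group had no window. The window of *Ifi47*, a related GTPase grouped with the other *Ifi* genes, did not hold them. The windows of *Gbp2* (chr3:142620413-142620662, plus strand) and its neighbour *Gbp2b* (chr3:142594597-142594846, plus strand) are shown because these genes had the largest fold changes of the members. *Irgm1* (chr11:48871421-48871670, minus strand) held overlapping matches close to its start, and *Igtp* (chr11:58199306-58199555, plus strand) held GAS letters just before ISRE letters, both in capitals.
Gbp2: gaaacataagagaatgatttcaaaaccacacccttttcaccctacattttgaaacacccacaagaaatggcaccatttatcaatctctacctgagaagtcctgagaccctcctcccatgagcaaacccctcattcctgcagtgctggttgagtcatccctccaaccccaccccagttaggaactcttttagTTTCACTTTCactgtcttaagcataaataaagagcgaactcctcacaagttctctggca
Gbp2b: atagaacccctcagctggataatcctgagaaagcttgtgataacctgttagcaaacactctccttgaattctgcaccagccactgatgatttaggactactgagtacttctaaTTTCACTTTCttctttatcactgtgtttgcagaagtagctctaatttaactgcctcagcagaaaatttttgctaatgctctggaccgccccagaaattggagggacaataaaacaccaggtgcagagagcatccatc
Irgm1: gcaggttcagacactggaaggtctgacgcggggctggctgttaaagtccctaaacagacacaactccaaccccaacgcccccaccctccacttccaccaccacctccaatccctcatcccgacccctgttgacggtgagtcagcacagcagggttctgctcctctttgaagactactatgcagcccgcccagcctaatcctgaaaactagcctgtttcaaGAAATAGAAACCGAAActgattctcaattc
Igtp: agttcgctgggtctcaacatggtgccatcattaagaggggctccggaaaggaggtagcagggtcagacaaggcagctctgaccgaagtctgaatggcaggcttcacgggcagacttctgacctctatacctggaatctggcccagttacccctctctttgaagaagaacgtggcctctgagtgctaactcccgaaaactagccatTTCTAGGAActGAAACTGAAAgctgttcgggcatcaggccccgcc

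Among the interferon regulatory factors 1 of 8 windows held ISRE letters and 3 of 8 held GAS letters, and none of the 4 receptor genes held ISRE letters. *Irf1* (chr11:53769764-53770013, plus strand) is shown for its GAS letters, and *Rsad2* (chr12:26456453-26456702, minus strand) because it held ISRE letters and yet had the smallest difference between the groups of all members tested.
Irf1: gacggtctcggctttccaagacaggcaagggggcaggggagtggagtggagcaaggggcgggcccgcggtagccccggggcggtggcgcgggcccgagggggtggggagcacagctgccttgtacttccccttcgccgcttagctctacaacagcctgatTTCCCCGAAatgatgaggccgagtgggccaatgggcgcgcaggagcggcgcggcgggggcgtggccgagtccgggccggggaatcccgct
Rsad2: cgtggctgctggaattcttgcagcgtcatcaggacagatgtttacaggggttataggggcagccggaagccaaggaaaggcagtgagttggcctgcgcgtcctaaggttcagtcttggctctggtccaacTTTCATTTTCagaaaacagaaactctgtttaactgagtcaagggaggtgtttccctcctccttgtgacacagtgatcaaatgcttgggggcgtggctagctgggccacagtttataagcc

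Of 50 ISRE matches in the members' windows, 44 lay before the gene start and 39 of them within 150 bases of it. The plot of match positions shows this, with the red squares of ISRE gathered between the start and 150 bases before it. The windows of *Ifit1* and *Ifit1bl2*, on opposite strands, overlap, and their pairs of ISRE matches are the same bases, counted for both genes. A match of letters is a description and does not show that a factor was bound.

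**Figure D1:**
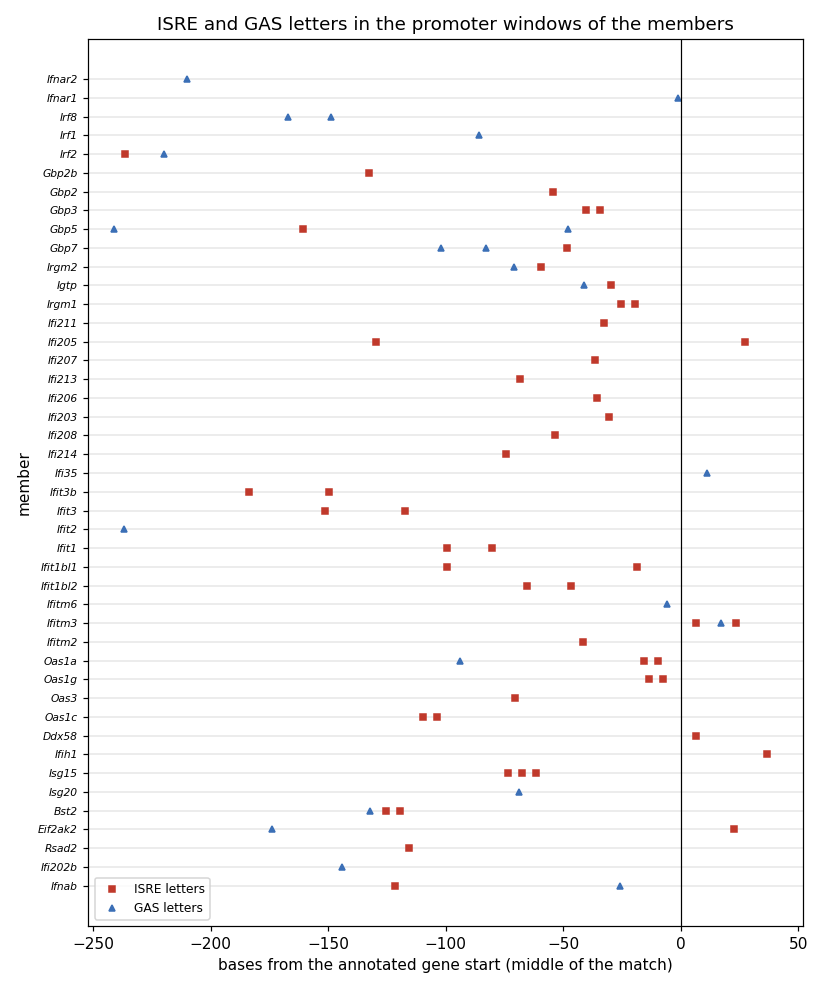
Position of ISRE letters (red squares) and GAS letters (blue triangles) in bases from the annotated gene start, for each member whose window held at least 1 match. Of the 50 ISRE matches, 39 fall within 150 bases before the start. The pairs of *Ifit1* and *Ifit1bl2* are the same bases, drawn for both genes.

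The libraries held 15.8 to 17.4 M fragments (sham) and 13.3 to 16.5 M (AAN), as recovered from the steps between low values. Values are FPKM, fragments per kilobase of gene model and M fragments. Differences are given as log2 fold changes of FPKM + 0.1, AAN minus sham, with the standard error, from limma across the 17129 genes whose average over the mice reached 0.1 FPKM. A gene was called higher or lower when its Benjamini-Hochberg adjusted p over all genes tested was at most 0.05 and it changed at least 2-fold. The whole profile was shifted: 35.8% of all genes tested were called higher and 3.43% lower, and the median over all genes was 0.75. After rescaling by the median of ratios, which sets the typical gene equal between mice, the median was 0.065 and 19.0% were called higher. The mitochondrial share of all FPKM was 39.5% to 61.4% (sham) and 21.4% to 55.0% (AAN). Markers of the labelled cortex were present, and 9 proximal tubule markers summed to 21614 to 36266 FPKM in sham mice. That sum was 1209 to 3734 FPKM in AAN mice, with 7 of the 9 lower, while 7 of 7 markers of injured tubule were higher. Most of the proximal tubule sum in sham mice was *Kap*, at 16685 to 33359 FPKM, against 303 to 2204 in AAN mice. *Slc34a1* was at 1231 to 2754 FPKM in sham mice and at 390 to 1487 in AAN mice, and *Slc5a2* and *Aqp1* were not called.

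Nearly the whole family was higher in the AAN cortex. Of the 87 members, 76 were called higher, none lower, 5 passed the filter without a call and 6 were too low to test. The share of 76 in 81 tested stands beside the 35.8% of all genes. With the median of ratios 69 members were called higher, beside 19.0% of all genes, and with quantile normalization 66, beside 13.0%. The filter itself favours genes that are on in AAN alone, and 8 of the tested members had a sham mean under 0.1 FPKM. Among genes with a sham mean of at least 0.1 FPKM, 69 of 73 members were called higher, beside 30.5% of all genes. The members' median log2 fold change was 2.70, from 0.43 in *Rsad2* to 6.56 in *Gbp2b*, and 2.02 with the median of ratios. In 74 members every AAN mouse lay above every sham mouse, which held for 40.3% of all genes tested.

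**Figure D2:**
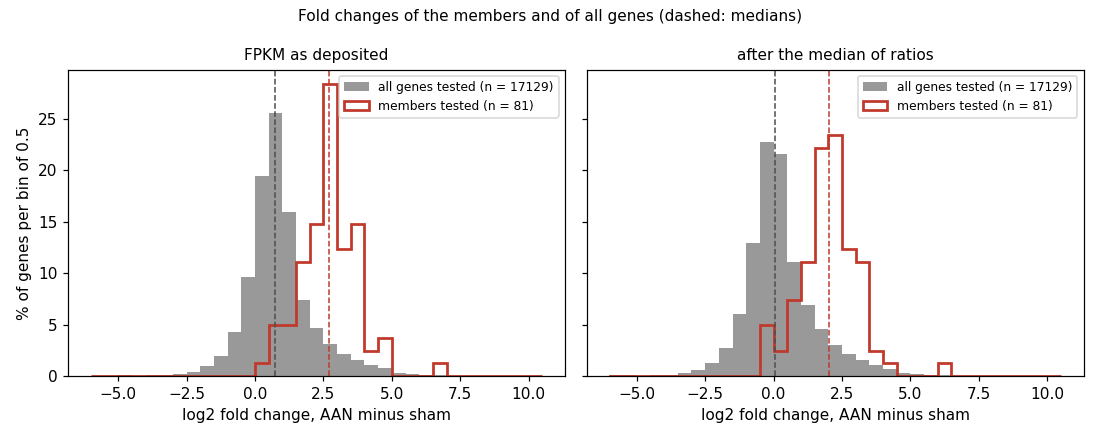
Share of genes (% per bin of 0.5) by log2 fold change, AAN minus sham, for all 17129 genes tested (grey) and the 81 members tested (red line), with medians dashed. The members' median lies to the right of that of all genes both in the deposited FPKM (2.70 against 0.75) and after the median of ratios (2.02 against 0.065).

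The plot of fold changes by role shows that the roles overlapped widely. The guanylate-binding proteins had the highest median of any role with more than 2 members tested (3.60), the IFIT genes followed (3.01), and the receptors (2.20) and the mixed group of other *Ifi* genes (2.19) had the lowest. Within most roles the spread was wider than the gap between these medians, for example from 0.58 to 3.82 among the interferon regulatory factors. The role medians were not tested against each other. Counts called higher by role below stand beside 35.8% of all genes tested. Counts of genes without overlap between the groups stand beside the 40.3% in which every AAN mouse lay above every sham mouse.

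**Figure D3:**
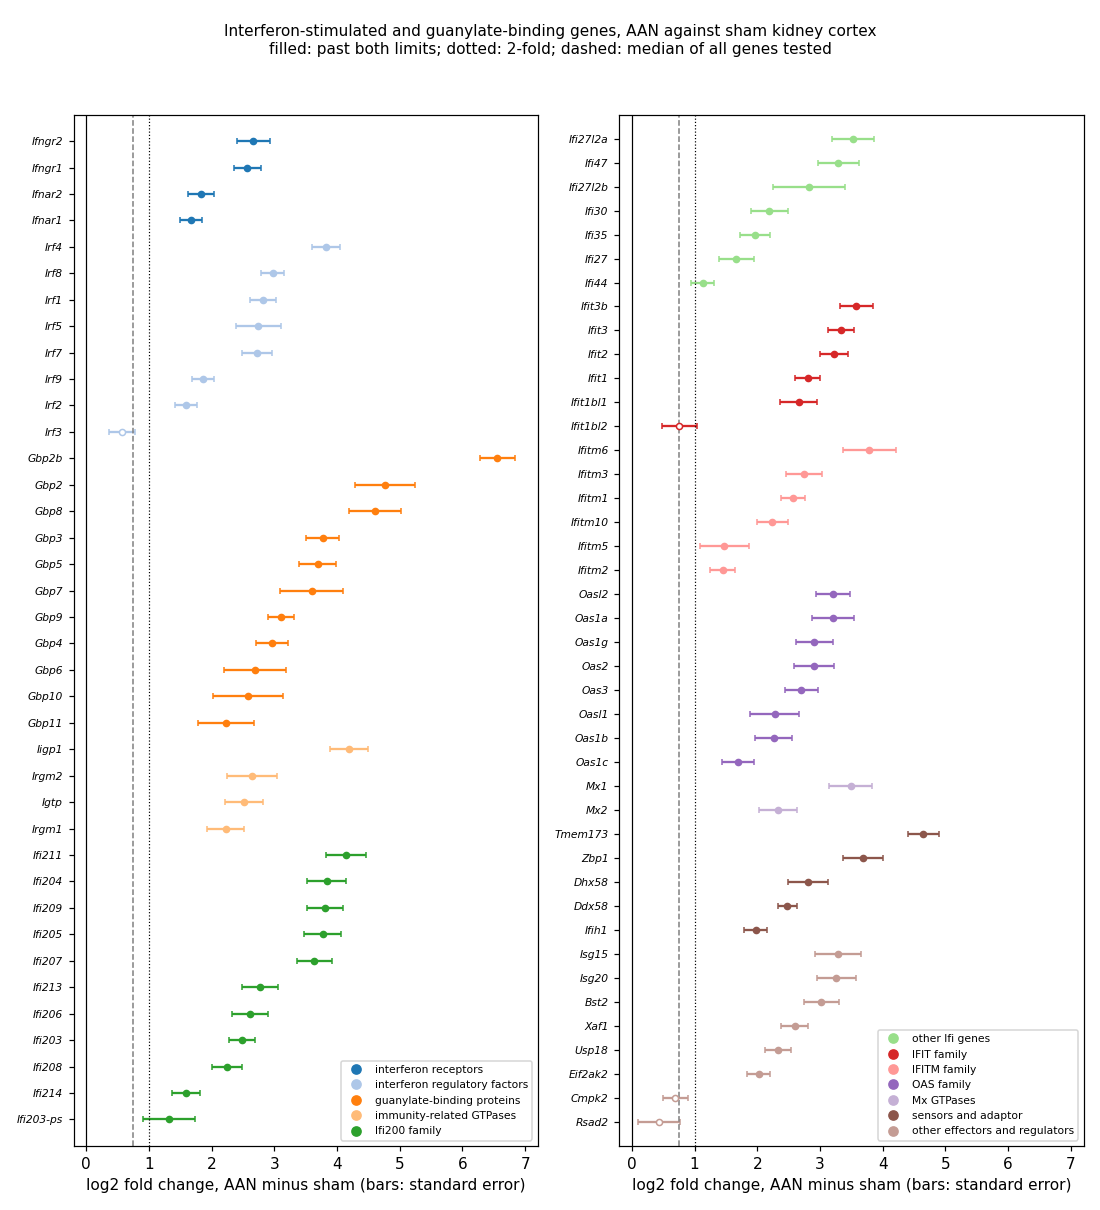
Log2 fold change, AAN minus sham, of 80 members tested, by role, with bars for the standard error. Filled points passed both limits, and the 4 open points (*Irf3*, *Ifit1bl2*, *Cmpk2* and *Rsad2*) did not.

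Interferon transcripts themselves were scarce. *Ifnab*, the only interferon alpha gene among the members, was at 0 in all sham mice and in 4 of 6 AAN mice, with 0.122 and 0.0706 FPKM in the others, and was not tested. *Ifng*, the gene of interferon gamma and not a member, stood at 0.0946, 0.209, 0 and 0 FPKM in sham mice and at 0.453 to 2.60 in AAN mice with a median of 1.27. The groups of *Ifng* did not overlap, and its log2 fold change was 3.17 (SE 0.45, limma adjusted p = 9.99e-05). *Ifnz* was at 0 in every sham mouse and at most 0.0867 FPKM in an AAN mouse. Interferon beta and the other ligands searched were not analysed here.

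All 4 receptor genes were higher in AAN mice, with no overlap between the groups, and the fold changes of the interferon gamma receptor were larger than those of the type I receptor, a difference that was not tested. *Ifngr1*, the ligand-binding subunit for interferon gamma, stood at 6.43, 5.15, 5.16 and 6.82 FPKM in sham mice and at 22.1 to 46.9 in AAN mice with a median of 39.9 (log2 fold change 2.57, SE 0.22, limma adjusted p = 1.80e-06). Its partner *Ifngr2* was at 4.78, 2.38, 2.55 and 3.05 FPKM in sham mice and at 14.0 to 26.7 in AAN mice, median 21.5 (2.67, SE 0.26, adjusted p = 5.18e-06). *Ifnar1* was at 4.38, 2.98, 3.47 and 3.25 FPKM in sham mice and at 8.51 to 13.0 in AAN mice, median 12.2 (1.68, SE 0.17, adjusted p = 6.97e-06). *Ifnar2* was at 3.30, 3.49, 3.77 and 4.42 FPKM in sham mice and at 7.75 to 16.8 in AAN mice, median 14.6 (1.83, SE 0.21, adjusted p = 1.95e-05). The change of *Ifnar1* fell to 0.93 with the median of ratios and 0.95 with quantile normalization, under the 2-fold limit in both. The ratio of *Ifngr1* to *Ifnar1* within a mouse does not depend on scaling between mice. It was 1.47 to 2.10 in sham mice, against 2.60 to 4.07 in AAN mice, without overlap, while the ratio of *Ifngr2* to *Ifnar2* overlapped (0.677 to 1.45 and 0.992 to 1.94). These ratios were chosen after the values were seen and are given without a test.

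The kinases and STAT proteins behind the receptors, which are not members, were higher as well. Of 8 signalling genes listed, 8 were called higher, beside 35.8% of all genes, and 6 with the median of ratios, beside 19.0%. *Stat2*, a factor of the type I pathway, was at 3.96, 4.83, 5.73 and 5.12 FPKM in sham mice and at 14.4 to 30.7 in AAN mice, median 25.4 (log2 fold change 2.25, SE 0.21, limma adjusted p = 3.98e-06). *Stat3* rose by 1.97 (SE 0.26), *Tyk2* by 1.85 (SE 0.17) and *Jak2* by 1.83 (SE 0.15). *Jak1* stood at the limit with 1.04 (SE 0.23), and its groups overlapped, with 16.4 FPKM in sham mouse B607 and 15.5 in AAN mouse B630. It lost its call with a pseudocount of 1 (0.98), with the median of ratios (0.29), with quantile normalization (0.51), and without sham mouse B634 (0.87), sham mouse B636 (0.94) or AAN mouse B642 (0.99).

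Among the interferon regulatory factors (IRFs), the transcription factors of the system, 7 were called higher. *Irf4*, a factor of lymphocytes and of some macrophages, was nearly silent in sham mice (0.188, 0.0909, 0.175 and 0.050 FPKM) and reached 2.32 to 3.57 in AAN mice, median 3.06 (log2 fold change 3.82, SE 0.23, limma adjusted p = 1.78e-07). *Irf8*, which directs the formation of macrophages and dendritic cells, was at 1.35, 1.10, 1.67 and 1.43 FPKM in sham mice and at 8.40 to 14.1 in AAN mice, median 11.6 (2.98, SE 0.18, adjusted p = 2.14e-07). *Irf1*, an early target of interferon gamma, was at 1.53, 1.72, 2.17 and 1.65 FPKM in sham mice and at 9.39 to 19.9 in AAN mice, median 11.9 (2.82, SE 0.21, adjusted p = 6.47e-07). *Irf5*, a factor of inflammatory macrophages, rose by 2.75 (SE 0.36), and *Irf7*, the factor that amplifies interferon alpha production, by 2.73 (SE 0.24). *Irf9*, the DNA-binding partner of STAT proteins, rose by 1.86 (SE 0.17). *Irf2*, which opposes Irf1, rose by 1.59 (SE 0.17), and by 0.84 with the median of ratios, under the limit. The factor that cells hold ready before infection, *Irf3*, had a small difference. It stood at 19.5, 24.2, 28.7 and 25.6 FPKM there and at 21.7 to 44.4 in AAN mice, median 39.3. Its log2 fold change was 0.58 (SE 0.21, adjusted p = 0.0311) and -0.19 with the median of ratios, and the groups overlapped through AAN mouse B614. By mean FPKM *Irf3* was above and *Irf4* below the other IRFs described here in both groups.

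The guanylate-binding proteins (Gbp), GTPases that coat and break vacuoles of intracellular microbes, were called higher in 11 of 11 genes, beside 35.8% of all genes. No AAN mouse overlapped the sham mice in any of them, which held for 40.3% of all genes tested. Of the 11, 2 had a sham mean under 0.1 FPKM and passed the filter through the AAN mice alone. *Gbp2* was at 3.29, 0.780, 2.36 and 3.24 FPKM in sham mice and at 23.7 to 150.1 in AAN mice, median 60.2 (log2 fold change 4.77, SE 0.48, limma adjusted p = 6.08e-06). *Gbp2b* was at 0 in all 4 sham mice and at 5.30 to 13.9 FPKM in AAN mice, median 10.6. A count of 0 allows up to 3 fragments in a library, at most 0.0675 FPKM for this gene, so its AAN mean was at least 147-fold higher (adjusted p = 7.66e-08). The fitted value of 6.56 for this gene depends on the pseudocount and is no bound. *Gbp8* was at 0.137, 0.140, 0.258 and 0.235 FPKM in sham mice and at 2.86 to 16.8 in AAN mice, median 6.13 (4.61, SE 0.42). *Gbp3* rose by 3.77 (SE 0.26), from a mean of 1.07 ± 0.226 FPKM (SD, n = 4) to 16.3 ± 5.31 (SD, n = 6). *Gbp7* rose by 3.60 (SE 0.50), and *Gbp5*, *Gbp9*, *Gbp4*, *Gbp6*, *Gbp10* and *Gbp11* by 2.24 to 3.69. *Gbp11* came from near 0 (0.0187 FPKM in 1 sham mouse and 0 in the others) and had an AAN mean of 0.469 FPKM.

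The *Gbp* genes lie in a cluster on chromosome 3 (142493978 to 142638008, GRCm38) and another on chromosome 5 (105014150 to 105346472). The 5 genes on chromosome 3 had a median log2 fold change of 3.77, from 3.60 to 6.56, and the 6 on chromosome 5 a median of 2.83, from 2.24 to 4.61, so the ranges overlapped. Some of the chromosome 5 genes cannot be separated well. *Gbp8* and *Gbp9* overlap *Gbp4* in the annotation, and 84.1% of the 50-base stretches of *Gbp10* and 70.7% of those of *Gbp6* also occur in transcripts of other genes. For *Gbp2b* and *Gbp2* fewer than 5% of stretches do.

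The immunity-related GTPases, which act with the Gbp proteins at vacuoles, were all called higher (4 of 4). *Iigp1*, an effector of the group, was at 2.43, 2.30, 3.41 and 3.79 FPKM in sham mice and at 36.9 to 100.6 in AAN mice, median 49.5 (log2 fold change 4.19, SE 0.30, limma adjusted p = 5.20e-07). The regulatory members had smaller fold changes, a difference that was not tested. *Irgm1* was at 8.80, 4.74, 5.16 and 8.36 FPKM in sham mice and at 17.3 to 48.0 in AAN mice, median 34.0 (2.23, SE 0.29, adjusted p = 5.11e-05). *Igtp* rose by 2.52 (SE 0.30) and *Irgm2* by 2.65 (SE 0.40). These last genes overlap on chromosome 11 and 11.8% of the 50-base stretches of *Igtp* occur in *Irgm2*, so their split is uncertain. The ratio of *Iigp1* to *Irgm1* within a mouse was 0.276 to 0.659 in sham mice, against 1.06 to 2.63 in AAN mice, a description without a test. *Ifi47*, a further GTPase of this kind, was at 1.46, 0.774, 1.61 and 2.44 FPKM in sham mice and at 10.3 to 29.1 in AAN mice, median 14.3 (3.29, SE 0.33).

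Genes for sensors of nucleic acid were higher in 5 of 5. *Tmem173* encodes STING, the adaptor that answers to DNA in the cytosol. It stood at 1.31, 0.795, 0.95 and 1.53 FPKM in sham mice and at 18.2 to 42.3 in AAN mice, median 32.4, and its log2 fold change of 4.64 (SE 0.25, limma adjusted p = 1.44e-07) was the third among all members. *Zbp1*, a sensor of Z-form nucleic acid that triggers necroptosis, was at 0.674, 0.313, 0.691 and 0.879 FPKM in sham mice and at 4.92 to 13.5 in AAN mice, median 9.79 (3.69, SE 0.32, adjusted p = 1.72e-06). *Ddx58*, which encodes the RNA sensor RIG-I, was at 1.87, 1.37, 1.46 and 1.82 FPKM in sham mice and at 8.42 to 10.2 in AAN mice, median 9.76 (2.48, SE 0.15, adjusted p = 1.77e-07). *Dhx58* (2.81) and *Ifih1* (1.97) stayed under 5 FPKM in both groups. A list of 14 other genes for nucleic acid sensing, sensors and their adaptors and kinases that are not members, was mixed. Of these 8 were called higher, beside 35.8% of all genes, and 7 with the median of ratios, beside 19.0%. In the deposited FPKM *Mavs* (0.33), *Ticam1* (0.15), *Traf3* (0.35), *Traf6* (0.68), *Trim25* (0.84) and *Tbk1* (0.93) were not called.

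The Ifi200 family, DNA-binding proteins encoded side by side on chromosome 1, was higher in all 11 genes tested of 12, with a median log2 fold change of 2.77. With the median of ratios 10 were called higher, beside 19.0% of all genes, and with quantile normalization 8, beside 13.0%. *Ifi211* was at 0.864, 0.247, 0.681 and 0.714 FPKM in sham mice and at 6.35 to 16.6 in AAN mice, median 13.0 (4.14, SE 0.32, limma adjusted p = 8.02e-07). *Ifi204* (3.83, SE 0.31), *Ifi209* (3.81, SE 0.28) and *Ifi207* (3.64, SE 0.28) rose from sham means under 1 FPKM, and *Ifi203* by 2.49 (SE 0.21) from 1.43. The copies share sequence, up to 72.8% of the 50-base stretches of *Ifi211*, so the share of each is uncertain. *Ifi203-ps* was the only tested gene of the family whose groups overlapped. It moved by 0.65 with the median of ratios and 0.17 with quantile normalization, under the limit in both. *Ifi202b* was at 0 in every sham mouse and at most 0.322 FPKM in an AAN mouse.

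The other *Ifi* genes included some of the most abundant members. *Ifi30*, a thiol reductase of lysosomes used in antigen presentation, was at 65.1, 48.2, 63.0 and 62.8 FPKM in sham mice and at 123 to 393 in AAN mice, median 305 (log2 fold change 2.19, SE 0.29, limma adjusted p = 5.99e-05). *Ifi27l2a* was at 10.5, 9.81, 12.5 and 13.5 FPKM in sham mice and at 52.4 to 204 in AAN mice, median 167 (3.52, SE 0.34, adjusted p = 3.99e-06). Its chromosome 12 neighbour *Ifi27* was at 14.4, 11.5, 11.8 and 33.2 FPKM in sham mice and at 44.4 to 64.2 in AAN mice, median 46.8 (1.66, SE 0.28, adjusted p = 0.00033). *Ifi27* moved by 0.90 with the median of ratios, under the limit. *Ifi35* rose by 1.96 (SE 0.24).

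The IFIT proteins, which bind viral RNA ends and block its translation, were higher in 5 of 6 genes. *Ifit3* was at 5.20, 5.86, 5.36 and 8.31 FPKM in sham mice and at 48.3 to 79.7 in AAN mice, median 61.2 (log2 fold change 3.33, SE 0.20, limma adjusted p = 2.01e-07). *Ifit1* was at 1.16, 1.21, 1.07 and 1.99 FPKM in sham mice and at 8.12 to 12.3 in AAN mice, median 9.72 (2.80, SE 0.19, adjusted p = 4.00e-07). *Ifit2* rose by 3.23 (SE 0.23), and *Ifit3b*, which shares 44.5% of its 50-base stretches with *Ifit3*, by 3.58 (SE 0.26). In turn 51.2% of the stretches of *Ifit3* occur in *Ifit3b*, so the split between *Ifit3* and *Ifit3b* is uncertain. *Ifit1* and *Ifit3*, whose promoters are printed above, were called higher under each scaling tried. *Ifit1bl2* stayed at or under 0.206 FPKM in every mouse and was not called (0.76, adjusted p = 0.0345).

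The IFITM proteins, which hinder the entry of viruses through membranes, were higher in all 6 genes tested of 7, and *Ifitm3* and *Ifitm2* were among the most abundant members. *Ifitm3* was at 36.6, 44.1, 49.7 and 65.5 FPKM in sham mice and at 151 to 416 in AAN mice, median 379 (log2 fold change 2.75, SE 0.29, limma adjusted p = 8.41e-06). *Ifitm2* was at 91.3, 92.0, 113 and 123 FPKM in sham mice and at 187 to 343 in AAN mice, median 308 (1.45, SE 0.20, adjusted p = 6.57e-05). *Ifitm2* moved by 0.68 with the median of ratios, under the limit, and 48.5% of its 50-base stretches also occur in transcripts of other genes. *Ifitm1* rose by 2.57 (SE 0.19) at a lower level, with an AAN mean of 7.82 FPKM.

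The OAS family, which includes enzymes whose product activates an RNase that degrades viral RNA, was higher in all 8 genes tested of 10. *Oas1a* was at 2.18, 0.703, 1.45 and 2.80 FPKM in sham mice and at 9.87 to 23.2 in AAN mice, median 15.4 (log2 fold change 3.20, SE 0.34, limma adjusted p = 8.32e-06), though 57.6% of its 50-base stretches occur in *Oas1g*. *Oasl2* rose by 3.20 (SE 0.27) to an AAN mean of 8.35 FPKM. The Mx GTPase genes *Mx1* (3.49) and *Mx2* (2.34) were called higher at AAN means of 4.14 and 1.23 FPKM.

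The remaining effectors held both strong and absent calls. *Isg15*, a ubiquitin-like protein joined to others during the interferon response, was at 3.40, 4.01, 5.95 and 8.99 FPKM in sham mice and at 23.4 to 74.3 in AAN mice, median 62.5 (log2 fold change 3.28, SE 0.36, limma adjusted p = 1.24e-05). *Bst2*, or tetherin, which holds budding viruses at the cell surface, was at 20.2, 14.5, 20.4 and 34.0 FPKM in sham mice and at 117 to 284 in AAN mice, median 166 (3.02, SE 0.28, adjusted p = 3.26e-06). *Xaf1* rose by 2.60 (SE 0.22), and *Eif2ak2*, the RNA-activated kinase PKR that stops translation, by 2.02 (SE 0.18). *Isg20* (3.26) and *Usp18* (2.32), the protease that removes Isg15 from its targets, were called higher at AAN means under 5 FPKM.

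Of the remaining effectors, *Rsad2* and *Cmpk2* were the 2 without a call, and they are named after their values were seen. They are neighbours on chromosome 12, *Rsad2* at 26442746 to 26456452 and *Cmpk2* at 26469204 to 26479837, with 12752 bases between them. *Rsad2* encodes viperin, an antiviral enzyme, and *Cmpk2* a nucleotide kinase of mitochondria. *Rsad2* was at 6.54, 2.03, 3.35 and 4.45 FPKM in sham mice and at 4.01 to 10.02 in AAN mice, median 4.20, so the groups overlapped (log2 fold change 0.43, SE 0.34, limma adjusted p = 0.282, exact permutation p = 0.30). *Cmpk2* was at 6.55, 3.73, 4.73 and 5.06 FPKM in sham mice and at 5.70 to 9.90 in AAN mice, median 8.15, with overlap (0.69, SE 0.20, adjusted p = 0.00928). Both lay below the all-gene median of 0.75, as did *Irf3* (0.58), which was lower than *Cmpk2*. With the median of ratios *Rsad2* and *Cmpk2* were at -0.32 and -0.060, and *Irf3* at -0.19. Within a mouse, *Rsad2* over *Ifit1* was 1.68 to 5.63 in sham mice, against 0.393 to 1.14 in AAN mice, and *Cmpk2* over *Ifit1* was 2.55 to 5.64 and 0.701 to 1.12. Neither ratio overlapped between the groups, and both were chosen after the values were seen and carry no test.

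**Figure D4:**
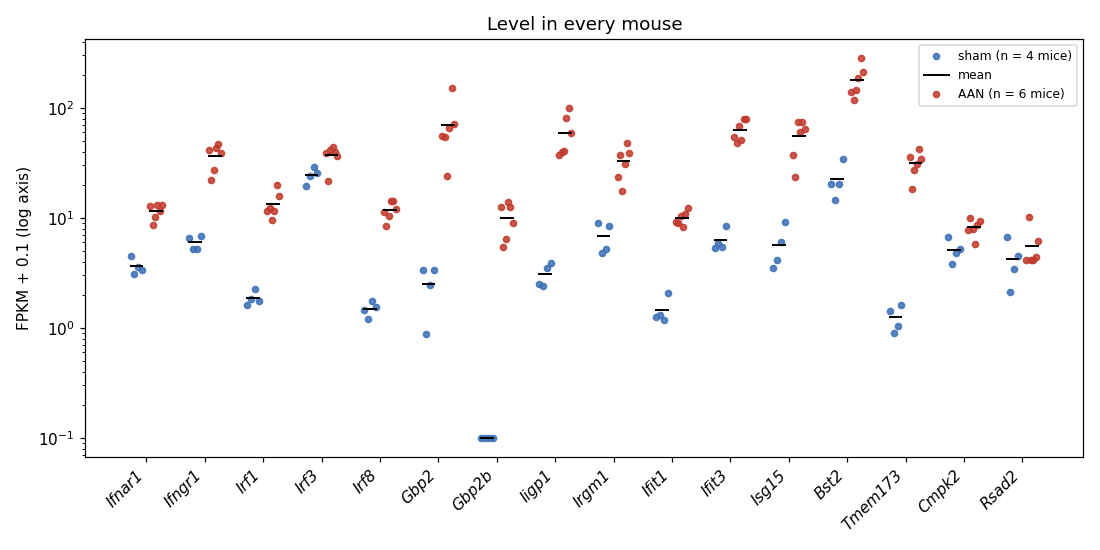
FPKM + 0.1 on a log axis for 16 genes in every sham mouse (blue, n = 4) and AAN mouse (red, n = 6), with black lines for the means. The groups are apart in all but *Irf3*, *Cmpk2* and *Rsad2*, and *Gbp2b* is at 0 in all 4 sham mice.

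Together the members' FPKM summed to 329 to 497 in sham mice, against 1327 to 2960 in AAN mice. The 5 genes highest in AAN mice, *Ifitm3*, *Ifi30*, *Ifitm2*, *Bst2* and *Ifi27l2a*, made up 47.5% to 63.4% of that sum in each mouse.

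Most members were called higher both with and without the promoter letters, and the medians below were not tested against each other. Of members tested with a window, 32 of 34 with ISRE letters were called higher (median log2 fold change 2.73), and 24 of 26 without them (2.59). With GAS letters 17 of 17 were called (2.82), and without them 39 of 43 (2.62). *Rsad2*, printed above, was among those with ISRE letters and no call.

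Other genes of the interferon pathway, from lists that exclude the members, moved the same way. Of 86 found, 85 were tested, 72 were called higher and none lower, beside the 35.8% of all genes. With the median of ratios 61 were called higher, beside 19.0%. *Cxcl9*, a chemokine that draws T cells and answers to interferon gamma, was at 0.543, 0.136, 0.801 and 0.484 FPKM in sham mice and at 16.4 to 56.6 in AAN mice, median 26.7 (log2 fold change 5.76, SE 0.41, limma adjusted p = 4.51e-07). *Cxcl10*, a related chemokine, rose by 4.60 (SE 0.30), *Tgtp1*, an immunity-related GTPase, by 4.71 (SE 0.42), and *Slfn1*, of the Schlafen family, by 4.67 (SE 0.34). *Socs3*, which restrains cytokine signalling, rose by 5.17 (SE 0.30). Of the 8 negative regulators listed 6 were called higher, beside 35.8% of all genes, and 3 with the median of ratios, beside 19.0%.

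Markers of immune cells moved with the members, and the counts called below stand beside 35.8% of all genes called higher. Summed FPKM of 8 leukocyte markers was 9.29 to 16.8 in sham mice, against 169 to 504 in AAN mice, with 8 of 8 called higher. Macrophage markers (9 of 9 higher) summed to 46.3 to 79.6 and 1777 to 5674 FPKM, T cell markers (8 of 8) to 1.39 to 5.22 and 103 to 266, NK cell markers (4 of 6) to 0.995 to 1.78 and 13.9 to 43.9, and B cell markers (3 of 5) to 0.673 to 1.28 and 3.82 to 9.53. None of these lists held a marker at 0 in all sham mice. The NK cell sum in AAN mice was mostly *Nkg7*, for example 34.8 of the 43.9 FPKM in B642. *Gzma*, *Prf1* and *Eomes* were also called higher, the last of these and *Prf1* at under 1 FPKM in every mouse. *Ncr1* was not called (0.87) and *Klrb1c* was too low to test, both at under 1 FPKM in every mouse. The rise of the NK cell sum thus rests mainly on 1 gene. Fibroblast markers (7 of 7) summed to 16.2 to 22.2 and 116 to 263 FPKM, while none of 7 endothelial markers was called (41.9 to 62.4 and 65.6 to 76.1). Of 6 listed markers of plasmacytoid dendritic cells, the cells known for interferon alpha, 4 were called higher and 1 lower. *Spib* rose by 3.19 to at most 4.27 FPKM, and *Ccr9* (2.36), *Runx2* (2.11) and *Pacsin1* (1.82) were called higher at under 1 FPKM in every mouse. *Siglech* was too low to test, at or under 0.259 FPKM in every mouse. The sum of that list was nearly all *Klk1*, a gene abundant in kidney and the marker called lower (2142 to 3662 FPKM in sham mice, against 1132 to 2975 in AAN mice). The part of these cells in the members' values was not tested.

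The AAN mice differed among themselves in the members, and B614 and B642 stood at the ends. B614 was the lowest AAN mouse in 49 of the 81 members tested and B642 the highest in 47. The median log2 difference of B614 from the mean of the other 5 AAN mice was -0.54 over the members, against -0.093 over all genes. It also had the lowest marker sums of leukocytes, macrophages, T cells and fibroblasts and the highest proximal tubule sum (3734 FPKM) among AAN mice. The difference was uneven over the roles. In B614 the other *Ifi* genes (-0.87), the Ifi200 family (-0.83), the IFITM genes (-0.77) and the Mx genes (-0.77) were low, while the immunity-related GTPases (0.030) and the IFIT genes (-0.12) were near the others, and *Rsad2* was highest of all mice. B630 was low in Gbp genes (-0.60) and immunity-related GTPases (-0.79) and not in the OAS genes (0.10), and B642 was high in both GTPase groups (0.97 and 1.0). Among sham mice, B634 was lowest in 52 members and H249 highest in 46. The median log2 difference of B634 from the mean of the other sham mice was -0.43 over the members, against -0.33 over all genes. With the median of ratios it was -0.13 over the members. For H249 the same values were 0.43, 0.13 and 0.33. With B614 and B634 both left out, chosen after seeing the data, 75 members were called higher.

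**Figure D5:**
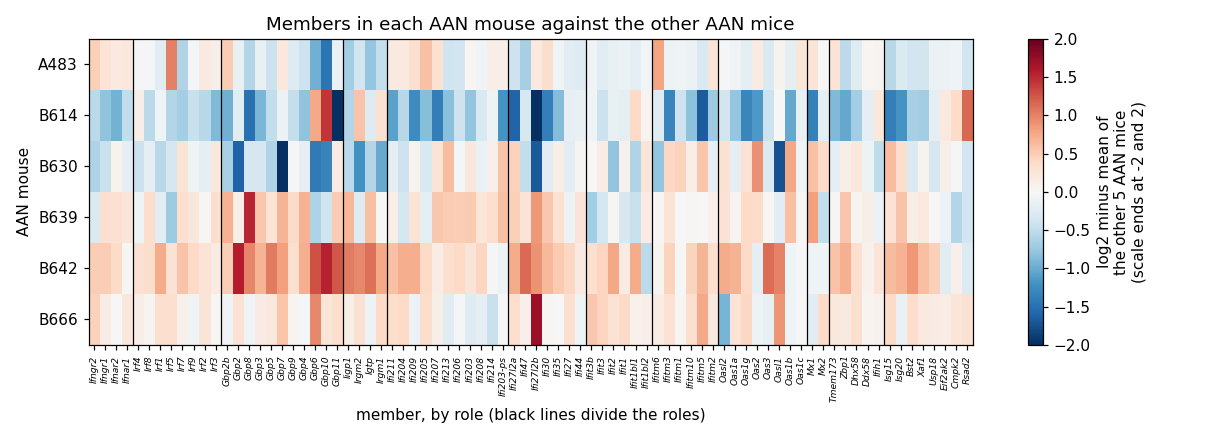
Difference of each AAN mouse (rows) from the mean of the other 5 AAN mice, in log2(FPKM + 0.1), for 80 members tested (columns, by role). Red is higher and blue lower, and B614 is blue in most members while B642 is red in most.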

How the data were processed

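RNA of the renal cortex of 10 mice was sequenced with 1 library per mouse. The authors filtered the reads, mapped them to GRCm38 with Hisat2 and deposited FPKM per known gene model from Stringtie, tools that the submitters' processing notes also name. The annotation release and the use of strand are not given in the sources used here, so overlapping genes and near-identical copies are uncertain. The authors tested with edgeR, which needs counts. Since FPKM were deposited, limma 3.58.1 (R 4.3.3; lmFit, eBayes with trend and robust) was run on log2(FPKM + 0.1) for genes averaging 0.1 FPKM or more, which understates the change of low genes. Calls needed a Benjamini-Hochberg adjusted p of at most 0.05 over all 17129 genes tested and a 2-fold change. Symbols and positions came from GENCODE M21 on GRCm38, and 21665 of the 21792 genes had a symbol. Depth was recovered from values under 0.3 FPKM in genes with 1 transcript, of which 94.8% to 97.0% were whole fragments within 0.05. It is a check on precision and covers counting error only. Of the members, 69 have several transcripts, for which fragments are estimated.

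Groups follow the sample labels. The exact two-sided permutation test used all 210 splits of the mice, with a smallest p of 0.00476. P-values weigh the difference between the groups against the spread between these mice. The genes named are all receptors and IRFs, in each other role up to 5 called members with 5 FPKM or more on average in the higher group, ranked by fold change, and from the pathway lists the ligands, the kinases, the STAT genes and the 5 largest changes, apart from genes that are not reported here. The members and lists were chosen with earlier results of these data known. Alternatives were pseudocounts of 1 and 0.01, no filter, a mean of at least 1 FPKM, the median of ratios, quantile normalization, limma without trend or robust, no fold limit, each mouse left out, B-tagged mice alone, and B614 and B634 both left out. The fit and the exact test were tested on simulated data. Pathway symbols without a match were *Ifnb1*, *Ifnk*, *Ifne*, *Ifnl2*, *Ifnl3*, *Pyhin1* and *Mnda*. Values and plots were made in Python 3.11.15 with scipy 1.17.1, pandas 2.3.3, matplotlib 3.10.9 and numpy 2.4.6.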

Additional observations from a re-analysis of the deposited data

Results flagged for a closer look

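Of 122 groups of values examined, 8 had a mouse whose gap to the nearest other, as a share of the range, passed Dixon's 95% limit, and chance gives about 6.1. AAN mouse B614 accounted for 4 of them. It had 7.75 FPKM of *Ifnar2* against 13.5 to 16.8 in the other AAN mice, 21.7 of *Irf3* against 36.5 to 44.4, and 4.40 of *Ifi207* against 10.6 to 13.6. It was high in *Rsad2*, at 10.02 FPKM against 4.01 to 6.10. Sham mouse H249 was high in *Ifi27*, at 33.2 FPKM where the rest of the sham mice had 11.5 to 14.4, and in *Ifit1*, at 1.99 against 1.07 to 1.21. Sham mouse B634 was low in *Ifi30*, at 48.2 FPKM against 62.8 to 65.1, and in *Tyk2*, at 3.40 against 4.19 to 4.34.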

How the results depend on the processing

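The 76 members called higher became 65 to 80 under the alternatives and 74 to 77 with each mouse left out, and none was called lower. The 72 other pathway genes became 58 to 77, and 71 to 75 with each mouse left out. Counts over all genes moved more. The 6126 genes higher became 2909 with a pseudocount of 1, 4025 with a filter at 1 FPKM, 3261 with the median of ratios, 2232 with quantile normalization, 9482 with no fold limit, and 5488 to 6684 with each mouse left out. The 588 genes lower became 1801, 2157 and 1027 with the median of ratios, quantile normalization and no fold limit, and 524 to 703 with each mouse left out. The members' median log2 fold change of 2.70 was 1.96 and 3.02 with pseudocounts of 1 and 0.01, 2.02 with the median of ratios, 1.78 with quantile normalization, and 2.58 to 2.86 with each mouse left out.

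The direction reversed in *Irf3* (-0.19), *Cmpk2* (-0.060) and *Rsad2* (-0.32) with the median of ratios, and in *Ifit1bl2* (-0.57), *Cmpk2* (-0.030) and *Rsad2* (-0.38) with quantile normalization. With B614 and B634 both left out, *Rsad2* was at -0.048. None of these genes was called in the deposited FPKM, and the cause was not tested. Of 1218 alternative values of 61 single genes, 1193 kept direction and side of the limits. No paired analysis was possible because no label links a sham mouse to an AAN mouse.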
